A study of Bos taurus with 4 samples.

Results

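The genes followed here mark the walls of blood vessels and lymph vessels and the pericytes around them. They are 10 genes taken by symbol (PECAM1, VWF, CDH5, KDR, TEK, EMCN, LYVE1, PROX1, RGS5 and PDGFRB), and each was found on 1 row of the 29792 rows counted in every library. The study compared 4 bovine RNA samples from Hanwoo cows, an adult Korean cattle breed, aged over 24 months. There was 1 library each of small intestine, of muscle, of jejunal crypt organoids at passage 5 (P5) and of jejunal crypt organoids at passage 10 (P10). Organoids were grown from isolated crypts in Matrigel with IntestiCult medium, and no agent or gene alteration separates the groups. The labels do not say which animals the samples came from, whether the organoids of both passages are 1 line, or which muscle was taken. Each group has 1 library, so the differences are without a replicate check, and p-values are not given.

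Blood vessels and lymph vessels are lined by endothelial cells, which hold to each other through adhesion proteins and depend on growth factor receptors for survival. VEGF acts on endothelium through KDR, and angiopoietins act through TEK. Pericytes wrap small blood vessels, and they depend on PDGF-B made by the endothelium and received through PDGFRB. In the small intestine the villus core holds a dense capillary bed and a central lymph vessel, the lacteal, that carries absorbed fat. Crypt organoids are an epithelial culture started from crypts stripped off this tissue.

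QuantSeq reads only the 3′ ends of polyadenylated RNA, so counts do not grow with transcript length, but they depend on how each 3′ end was primed and annotated. Levels are therefore compared between libraries for 1 gene and not between genes. The libraries held 17776273 counted reads for intestine, 17730571 for P10 organoids, 13599831 for P5 organoids and 12917720 for muscle. Levels are given as CPM, the reads per 1000000 reads of the library, with an exact 95% interval that covers counting error only. Differences between libraries are log2 differences of quantile-normalised counts plus 1, and their 95% intervals carry the counting error of both libraries. A gene was called higher or lower where the difference was at least 2-fold and either library had at least 10 reads. A count of 3 reads was taken as the floor, and a library at 0 reads gives only a bound computed at that floor. One ribosomal RNA row, RN18S1, took 23.6% of the reads in muscle and between 0.264% and 4.81% elsewhere, so CPM values in muscle are lowered for other genes.

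The tissue labels were checked against markers. Muscle held all 10 skeletal muscle markers, summing to 549892 reads, and the other libraries held 61 (intestine), 40 (P5 organoids) and 36 (P10 organoids). The 10 epithelial markers summed to 13017 CPM in P5 organoids, 10497 CPM in P10 organoids, 3332 CPM in intestine and 29.0 CPM in muscle. No library went against its label.

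Among the adhesion and surface genes of endothelium, PECAM1, the platelet endothelial cell adhesion molecule also found on leukocytes and platelets, had 220 reads in intestine (12.4 CPM), 178 in muscle (13.8 CPM) and 7 in each organoid library (0.515 CPM in P5 and 0.395 CPM in P10). CDH5, the cadherin of endothelial junctions, had 166 reads in intestine (9.34 CPM), 103 in muscle (7.97 CPM), a single read in P5 organoids and none in P10 organoids. Both genes were far higher in the tissues than in the organoids, and their CPM did not differ between the tissues beyond counting error. On the quantile-normalised log2 scale both were higher in muscle. PECAM1 was at 8.84 in muscle and 7.42 in intestine, and CDH5 at 8.13 and 6.95. VWF, the clotting factor stored in endothelial granules and in platelets, had 298 reads in intestine (16.8 CPM), 102 in muscle (7.90 CPM), 13 in P5 organoids (0.956 CPM) and 34 in P10 organoids (1.92 CPM). EMCN, the endothelial sialomucin of capillaries and veins, had 62 reads in intestine (3.49 CPM), 89 in muscle (6.89 CPM), 16 in P5 organoids (1.18 CPM) and 4 in P10 organoids (0.226 CPM). In CPM, VWF and EMCN had opposite orders in both pairs, since VWF was higher in intestine than in muscle and in P10 than in P5 organoids, and EMCN was the reverse.

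Of the receptor kinases, KDR, the main VEGF receptor of blood endothelium, had 95 reads in intestine (5.34 CPM), 29 in muscle (2.24 CPM) and none in either organoid library. TEK, the angiopoietin receptor, had 199 reads in intestine (11.2 CPM), 40 in muscle (3.10 CPM), 29 in P5 organoids (2.13 CPM) and 20 in P10 organoids (1.13 CPM). Both had their highest CPM in intestine, but they parted in culture, where KDR was at 0 reads and TEK was not. The CPM of TEK in P5 organoids did not differ from that in muscle beyond counting error (muscle 1.45 times P5 organoids, 95% interval 0.878 to 2.43). On the quantile-normalised log2 scale TEK was higher in muscle, at 6.84, than in P5 organoids, at 5.20.

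LYVE1, a hyaluronan receptor of lymph vessels that some macrophages also carry, had 116 reads in intestine (6.53 CPM), 77 in muscle (5.96 CPM) and none in either organoid library. PROX1, the transcription factor that sets lymphatic identity, had 276 reads in intestine (15.5 CPM), 561 in muscle (43.4 CPM), 613 in P5 organoids (45.1 CPM) and 180 in P10 organoids (10.2 CPM). In CPM, PROX1 alone of the 10 genes was highest in an organoid library, and its CPM there was within counting error of that in muscle (ratio 1.04, 95% interval 0.924 to 1.17). On the quantile-normalised log2 scale PROX1 was higher in muscle, at 10.2, than in P5 organoids, at 9.23. PROX1 is also known from enteroendocrine cells of the intestinal epithelium and from skeletal muscle, so it does not mark lymph vessels alone.

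The pericyte genes had the widest range. RGS5, a regulator of G protein signalling in pericytes and vascular smooth muscle, had 1648 reads in intestine (92.7 CPM), 13 in muscle (1.01 CPM) and 1 in each organoid library. PDGFRB, the PDGF-B receptor of pericytes and fibroblasts, had 1035 reads in intestine (58.2 CPM), 226 in muscle (17.5 CPM), 14 in P5 organoids (1.03 CPM) and none in P10 organoids. Intestine was above muscle, and muscle above both organoid libraries, for both genes.

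**Figure D1:**
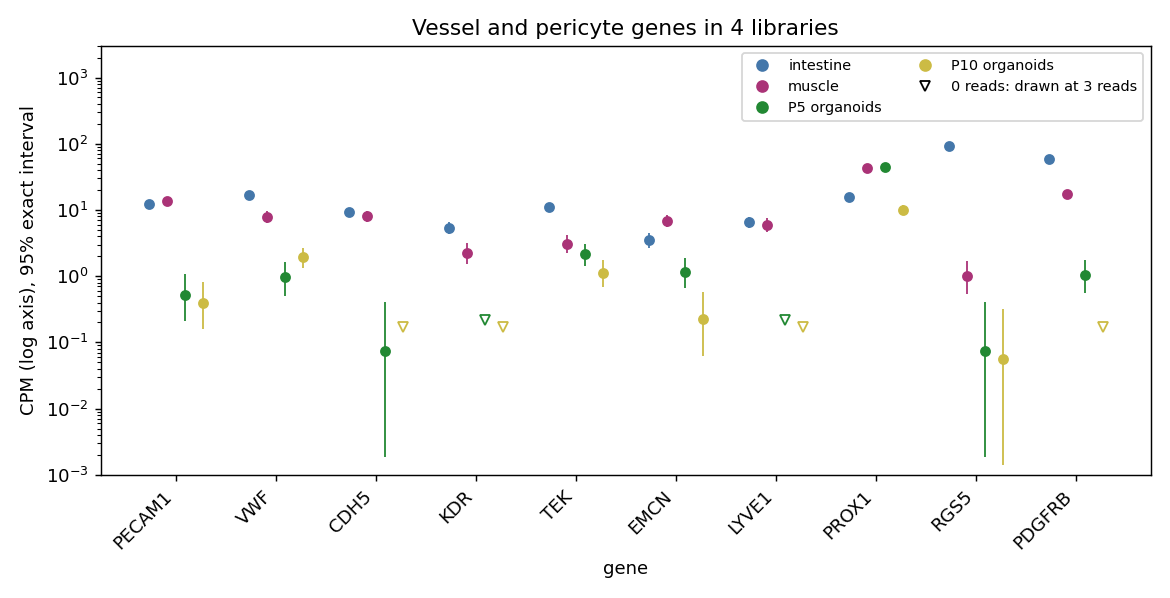
CPM of each of the 10 vessel and pericyte genes on a log axis, 1 point per library with its exact 95% interval, and open triangles at the value of 3 reads where a library had none. Intestine and muscle points lie above both organoid points for 9 genes, and PROX1 is the exception, with 45.1 CPM in P5 organoids against 43.4 in muscle and 15.5 in intestine.

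Intestine was compared with muscle to see how the vessel genes differ between the tissue of origin and the study's non-epithelial control. All 10 genes passed the read minimum in both tissues. RGS5 was the gene called higher in intestine, by a log2 difference of 5.56 (95% interval 4.62 to 6.46), and 5 of the 10 were called lower: EMCN, PROX1, LYVE1, PECAM1 and CDH5. Over all 17559 rows tested, 32.3% were called higher and 27.0% lower. On the quantile scale 5 of 10 lower is therefore above the background and 1 of 10 higher is below it. The log2 difference was -2.76 for EMCN (-3.26 to -2.24), -2.43 for PROX1 (-2.65 to -2.22), -1.46 for LYVE1 (-1.92 to -0.98), -1.41 for PECAM1 (-1.71 to -1.11) and -1.18 for CDH5 (-1.56 to -0.80). PDGFRB was 0.69 higher in intestine (0.50 to 0.88), less than 2-fold. VWF (-0.20), KDR (-0.40) and TEK (0.41) had intervals that held 0.

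These differences rest on the scaling between libraries. Scaling by library totals, which the RN18S1 reads in muscle distort in part, moved the median log2 difference of the tested rows from 0.08 to 1.31. The calls over all rows moved from 5680 higher and 4741 lower to 9969 higher and 2002 lower. With RN18S1 left out of the totals the median was still 0.99, with 8728 rows higher and 2431 lower, so most of the shift remained. With library totals VWF, KDR, TEK, RGS5 and PDGFRB were called higher and PROX1 lower. These calls stand beside 9969 rows higher and 2002 lower of 17559 tested, so the excess of lower calls was not seen with library totals. CDH5 and LYVE1 changed sign, to 0.23 and 0.13, which is still below the median of the rows under the same scaling. Across quantile, upper-quartile, TMM and library-total scaling, the last with and without RN18S1, RGS5, PDGFRB and TEK were higher in intestine under all 5, and EMCN, PROX1 and PECAM1 were lower under all 5. A shared sign is not a difference past counting error under every scaling. The interval of PECAM1 held 0 with library totals (-0.15, -0.44 to 0.14), and that of TEK held 0 on the quantile scale. The sign of VWF, CDH5, KDR and LYVE1 depended on the scaling.

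**Figure D2:**
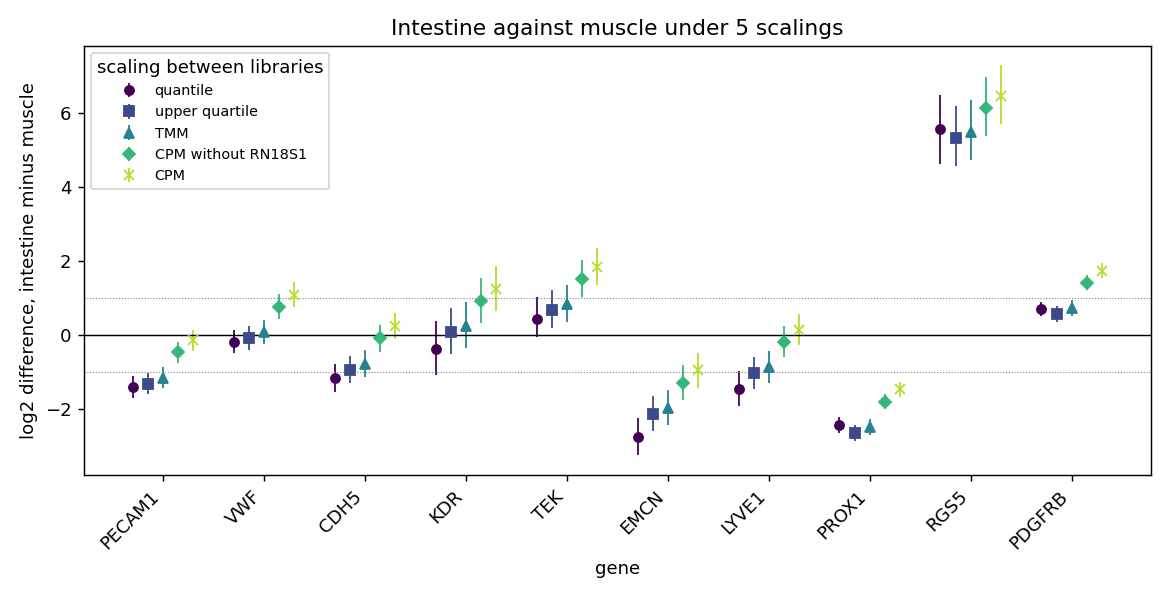
Log2 difference of intestine minus muscle for each gene under 5 scalings between libraries, with 95% counting intervals; dotted lines mark 2-fold. RGS5 lies between 5.31 and 6.44 and PROX1 between -2.65 and -1.48, while VWF, CDH5, KDR and LYVE1 cross 0.

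Reads per read of PECAM1 in the same library need no scaling, and this ratio was chosen after the values were seen. RGS5 had 7.49 reads for each PECAM1 read in intestine and 0.0730 in muscle, a ratio of 103 between the tissues (95% interval 57.0 to 199). PDGFRB had 4.70 per PECAM1 read in intestine and 1.27 in muscle (ratio 3.71, 2.88 to 4.76). Both pericyte genes were therefore higher in intestine relative to PECAM1, though by very different amounts. Among the endothelial genes the ratio of intestine to muscle was 4.03 for TEK (2.68 to 6.12), 2.65 for KDR (1.64 to 4.36) and 2.36 for VWF (1.73 to 3.23). EMCN, at 0.564 (0.378 to 0.838), and PROX1, at 0.398 (0.309 to 0.512), were lower relative to PECAM1. CDH5 (1.30, 0.940 to 1.81) and LYVE1 (1.22, 0.847 to 1.76) had intervals that held 1. The mixture of vessel genes thus differed between the tissues beyond counting error. The adhesion pair PECAM1 and CDH5 was in a similar proportion, and RGS5 and PDGFRB were not. Other mural cell genes were not set per PECAM1 read.

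Smooth muscle and fibroblast RNA differed between the tissues as well. Of the 8 smooth muscle markers, 5 were called higher in intestine and DES, which skeletal muscle also expresses, was called lower (all rows 32.3% and 27.0%). CNN1, the marker of this list with the most reads in intestine, had 10251 there and 82 in muscle. The 9 fibroblast markers summed to 1058 CPM in intestine and 1334 CPM in muscle, and the 12 leukocyte markers to 702 CPM and 78.0 CPM. RGS5 is also made by vascular smooth muscle, PDGFRB by fibroblasts and PECAM1 by leukocytes, and the part of these cells in the results was not tested. In bulk RNA, fewer cells of a type cannot be told apart from less RNA per cell.

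In the organoids the RNA of most of the 10 genes was at a small share of its intestine level. All 10 passed the read minimum through their intestine reads. In P5 organoids 8 of the 10 genes were called lower than in intestine and PROX1 was called higher, where 22.8% of the 17783 rows tested were called lower and 24.9% higher. In P10 organoids 9 of the 10 were called lower and none higher, against 26.1% and 28.0% of 17803 rows. The median log2 difference of the 10 genes was -4.93 in P5 and -4.96 in P10 organoids, or -4.01 and -3.24 with genes at 0 reads set to the floor, where the median of all tested rows was 0.11 in both. The 10 genes together stood at 22.0% of their intestine CPM in P5 (95% interval 20.3 to 23.9) and 5.99% in P10 organoids (5.25 to 6.82), and PROX1 held 613 of 694 and 180 of 246 of these reads. With PROX1 left out, a choice made after its values were seen, the other 9 genes together had 3839 reads in intestine, 81 in P5 organoids and 66 in P10 organoids. This is 2.76% of the intestine CPM in P5 (2.19 to 3.44) and 1.72% in P10 organoids (1.33 to 2.20). Both passages were set against the same intestine library, so their differences are not independent. The signs of the 10 genes were the same under all 5 scalings, while TMM scaling turned the calls over all rows from 4433 higher and 4048 lower to 3227 and 4750 for P5, and from 4977 and 4652 to 3880 and 5576 for P10 organoids.

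Of the pericyte genes, RGS5 was at 0.0793% of its intestine CPM in P5 organoids (95% interval 0.00201 to 0.443) and at 0.0608% in P10 organoids (0.00154 to 0.339), on 1 read each. PDGFRB was at 1.77% in P5 organoids (0.963 to 2.98), a log2 difference of -5.61 (-6.51 to -4.89), and at or below 0.291% in P10 organoids, where it had no reads. PDGFRB therefore had reads above the floor in P5 organoids and none in P10 organoids.

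Of the endothelial genes, CDH5, KDR and LYVE1 were at or under 1 read in both organoid libraries. CDH5 was at 0.787% of intestine in P5 organoids (0.0198 to 4.45) and at or below 1.81% in P10. KDR was at or below 4.13% in P5 and 3.17% in P10, at least 24.2-fold and at least 31.6-fold lower in CPM than in intestine. LYVE1 was at or below 3.38% and 2.59%, at least 29.6-fold and 38.6-fold lower. PECAM1 was at 4.16% in P5 (1.65 to 8.71) and 3.19% in P10 organoids (1.27 to 6.68). The depth does not show whether KDR and LYVE1 were lower than PECAM1 in culture, since their bounds lie within its interval.

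Among the 10 genes VWF, TEK and EMCN had, after PROX1, the largest shares in both passages. VWF was at 5.70% of intestine in P5 (3.00 to 9.90) and 11.4% in P10 organoids (7.78 to 16.3), so its interval overlapped that of PECAM1 in P5 and lay above it in P10 organoids. TEK was at 19.0% in P5 (12.4 to 28.2) and 10.1% in P10 organoids (6.02 to 16.0). EMCN was at 33.7% in P5 (18.2 to 59.2), a log2 difference of -0.78 whose interval held 0 (-1.68 to 0.01), and at 6.47% in P10 organoids (1.71 to 17.4). Under the other 4 scalings EMCN was called lower in P5 organoids as well, by log2 differences between -1.68 and -1.51, so this call rests on the scaling. The 10 skeletal muscle markers, genes of an uncultured tissue, stood in P5 organoids at 0.00691% of their muscle CPM and in P10 organoids at 0.00477%. They summed to 42569 CPM in muscle, so these shares cannot be set against those of genes with few reads in intestine. In reads the markers held 40 in P5 and 36 in P10 organoids, of which MB had 27 and 34. The origin of the VWF, TEK and EMCN reads in organoids was not tested.

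**Figure D3:**
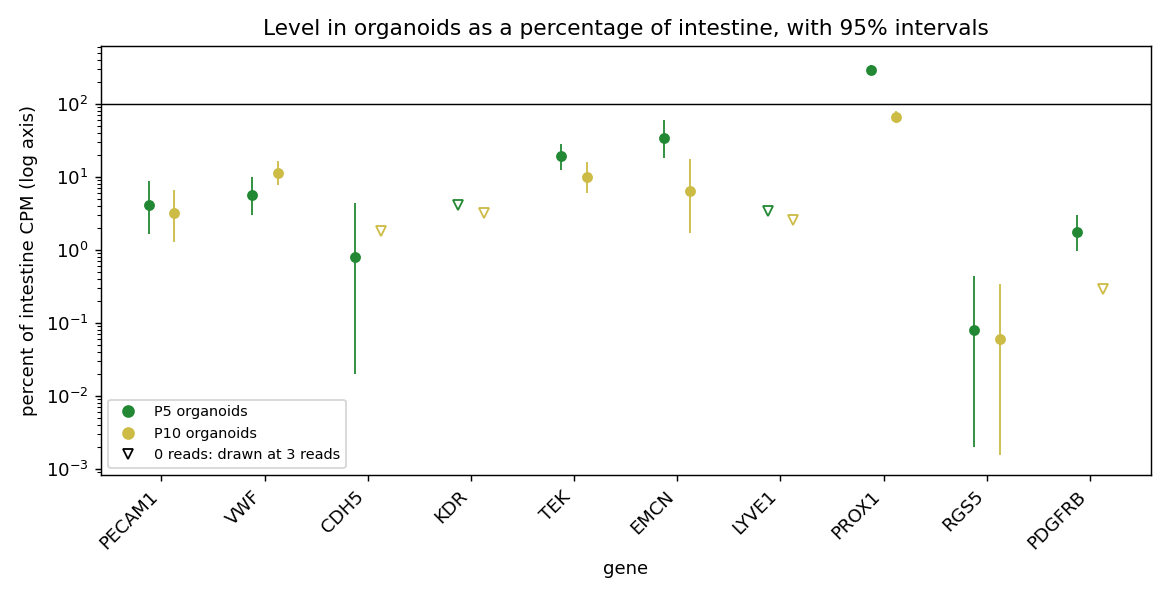
CPM in P5 and P10 organoids as a percentage of the CPM in intestine for each gene, on a log axis with exact 95% intervals, and open triangles at the value of 3 reads where a library had none. PROX1 in P5 organoids, at 290.3%, is the point above the line of equality, and RGS5 lies lowest among genes with a read, at 0.0793% and 0.0608%.

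PROX1 departed from the other 9 genes. It was at 290.3% of its intestine CPM in P5 organoids (95% interval 251 to 336), a log2 difference of 1.43 (1.22 to 1.65), and at 65.4% in P10 organoids (53.9 to 79.2), a log2 difference of -0.74 (-0.999 to -0.466). Among the other lymphatic genes, FOXC2 had 1 read in intestine, 8 in P5 and none in P10 organoids, and ITGA9 was within 2-fold in P5 and lower in P10 organoids, while FLT4, the receptor of VEGF-C, and CCL21, a chemokine of lymphatic endothelium, had 308 and 480 reads in intestine and none in either organoid library. The 6 enteroendocrine markers summed to 192 CPM in intestine, 5.59 CPM in P5 and 5.81 CPM in P10 organoids. CHGA had 3219 reads in intestine, 43 in P5 and 95 in P10 organoids, and PAX6 had 57, 10 and 8. SCG5 had 73, 18 and 0 reads and INSM1 had 5, 5 and 0, while NEUROD1, with 47, and CHGB, with 8 in intestine, were at 0 reads in both organoid libraries. From P5 to P10 organoids these markers did not share 1 direction. In muscle 5 of the 6 were at 0 reads. The part of enteroendocrine or lymphatic cells in the PROX1 level was not tested.

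Between the passages, 5 of the 10 genes had at least 10 reads in either organoid library. VWF was called higher in P10 organoids (log2 difference 1.04, 0.18 to 2.06), and PROX1 (-2.17, -2.39 to -1.95), EMCN (-1.35, -2.48 to -0.24) and PDGFRB (at least 6.08-fold lower in CPM) were called lower. Over all 16131 rows tested, 16.1% were called higher and 16.6% lower. TEK, at -0.68 (-1.35 to 0.06), was within 2-fold. The call of VWF was lost under each of the other 4 scalings, where its difference lay between 0.85 and 0.96, and the calls of EMCN and PDGFRB rest on 16 and 14 reads in P5 organoids. PROX1, with 613 and 180 reads, had the most reads behind its difference.

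Other genes of the vessel wall and its ligands were taken from 5 lists. In intestine against muscle, 3 of 27 other blood endothelial genes were called higher and 16 lower, with a median log2 difference of -1.47, and 2 of 13 ligands were called higher and 7 lower, where 32.3% of all rows were called higher and 27.0% lower. These calls rest on the quantile scaling. In CPM the other blood endothelial genes summed to 441 in intestine and 222 in muscle, with AQP1 at 210 and 40.3. The ligands summed to 145 and 90.7 CPM. Of 29 other genes of blood endothelium, 27 were tested against intestine, ICAM2 was on no row and SOX17 had no reads. In P5 organoids 23 were called lower and 1 higher, and in P10 organoids 25 lower and 1 higher, against 22.8% and 26.1% of all rows called lower. The differences had a median log2 difference of -4.48 in both passages, or -3.06 and -2.21 with genes at 0 reads set to the floor. In P5 organoids 16 of the 28 genes on a row were at 0 reads and in P10 organoids 15, where 1 of them was at 0 in intestine. PLVAP, the protein of capillary fenestrae, had 592 reads in intestine and none in either organoid library, at or below 0.662% in P5 and 0.508% in P10. FLI1, an ETS transcription factor of endothelium and blood cells, had 640 reads in intestine and 1 in each organoid library. AQP1, a water channel of capillaries, had 3734 reads in intestine, 90 in P5 and 175 in P10 organoids, or 3.15% (2.53 to 3.88) and 4.70% (4.01 to 5.47). The gene called higher, NOS3, the endothelial nitric oxide synthase, had 17 reads in intestine, 23 in P5 and 27 in P10 organoids, and its CPM did not differ from that of intestine beyond counting error. SOX7, PTPRB and LMO2 were the 3 genes within 2-fold in P5 organoids, named after their values were seen. In CPM, SOX7 was at 47.2% of intestine there (23.0 to 91.1).

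Of 16 genes that separate arteries, veins and capillaries, 13 were tested in P5 organoids, where 4 were called higher and 4 lower, and 12 in P10 organoids, where 2 were called higher and 7 lower. Over all rows 24.9% were called higher and 22.8% lower in P5, and 28.0% and 26.1% in P10 organoids, so the P5 counts of this list are near those of all rows. CD36, the fatty acid receptor of capillaries and enterocytes, had 4394 reads in intestine, 16 in P5 and 3 in P10 organoids. EFNB2, the arterial ephrin that is also made by epithelium, had 672 reads in intestine, 1291 in P5 and 1358 in P10 organoids, and its log2 difference was 1.12 (0.99 to 1.26) in P5 and 0.76 (0.63 to 0.90) in P10 organoids. SEMA3G, a semaphorin of arterial endothelium, had 150 reads in intestine, 1078 in P5 and 1532 in P10 organoids, with log2 differences of 3.27 (2.98 to 3.60) and 3.35 (3.06 to 3.67). EPHB4, the venous receptor of EFNB2, was within 2-fold in P5 organoids and 1.64 higher in P10 organoids (1.38 to 1.90), on 207, 126 and 708 reads. NR2F2, a transcription factor of veins and stroma, was within 2-fold in both, on 374, 329 and 323 reads. CA4, a carbonic anhydrase of capillaries, had 16, 34 and 0 reads, and BMX, a kinase of arterial endothelium, had 0, 13 and 1. DLL4, the Notch ligand of arterial endothelium, had 76, 49 and 32 reads and was within 2-fold in both, and the connexin genes GJA5, with 35, 12 and 0 reads, and GJA4, with 26, 9 and 0, were within 2-fold in P5 organoids. For GJA5 and GJA4 in P5 organoids and DLL4 in P10 organoids this holds on the quantile scale alone. DLL4 in P5 organoids, at 3.60 CPM, was within 2-fold of intestine in CPM too. In CPM, GJA5 was at 0.882 in P5 organoids and 1.97 in intestine, and GJA4 at 0.662 and 1.46, more than 2-fold lower. DLL4 was at 1.80 CPM in P10 organoids and 4.28 in intestine, also more than 2-fold lower. ACKR1, a marker of venules, had 59 reads in intestine and none in either organoid library.

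Of 9 other lymphatic genes, 6 were tested, and 5 were called lower in P5 organoids and 6 in P10 organoids, against 22.8% and 26.1% of all rows. NRP2, a co-receptor of VEGF-C, had 977 reads in intestine, 10 in P5 and 4 in P10 organoids. RELN, the secreted protein reelin, had 499, 76 and 79 reads, or 19.9% (15.4 to 25.4) and 15.9% (12.4 to 20.2) of intestine. ITGA9, an integrin of lymphatic valves, had 612, 342 and 155 reads and was within 2-fold in P5 organoids. In intestine against muscle, 4 of the 6 tested genes were called higher and none lower (all rows 32.3% and 27.0%), with a median log2 difference of 1.16. LYVE1 and PROX1 were called lower on this scale, though the sign of LYVE1 depended on the scaling.

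Of 12 other mural cell genes, 10 were tested, and 8 were called lower in P5 and 6 in P10 organoids, against 22.8% and 26.1% of all rows. MCAM, an adhesion molecule of pericytes, smooth muscle and endothelium, had 1745 reads in intestine and none in either organoid library, at or below 0.225% in P5 and 0.172% in P10. FOXS1, a forkhead factor of pericytes, had 259, 17 and 18 reads. The genes called higher were NDUFA4L2, a mitochondrial protein induced by hypoxia, with 220 reads in intestine, 906 in P5 and 1224 in P10 organoids, and NOTCH3, a Notch receptor of mural cells, called higher in P10 organoids alone, with 121, 66 and 322 reads. In intestine against muscle 7 of the 10 tested mural genes were called lower and 2 higher (all rows 27.0% and 32.3%), so the large excess of RGS5 in intestine was not shared by most of them. These calls rest on the quantile scaling. In CPM the mural list summed to 153 in intestine and 119 in muscle, where RGS5 had 92.7 and 1.01.

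Of 13 ligands that act on vessel cells, 12 were tested, and 3 were called higher and 7 lower in P5 organoids, and 4 higher and 5 lower in P10 organoids. The counts of ligands called higher are near those of all rows, 24.9% in P5 and 28.0% in P10 organoids. The counts of ligands called lower are above those of all rows, 22.8% in P5 and 26.1% in P10 organoids. VEGFA, the ligand of KDR, had 40 reads in intestine, 289 in P5 and 128 in P10 organoids, with log2 differences of 3.69 (3.20 to 4.24) and 2.14 (1.63 to 2.71). PDGFA, which signals through the PDGF receptors of stroma, had 443, 1154 and 2627 reads, with log2 differences of 1.60 (1.43 to 1.76) and 2.41 (2.25 to 2.57). APLN, the apelin peptide that acts on endothelium, had 45, 72 and 219 reads, with log2 differences of 1.63 (1.11 to 2.20) and 2.63 (2.17 to 3.15). ANGPT2, the ligand that competes at TEK, was called higher in P10 organoids (1.47, 1.08 to 1.83), on 119, 103 and 310 reads. ANGPT1, the activating ligand of TEK, had 736 reads in intestine, 43 in P5 and 2 in P10 organoids, at 7.64% (5.48 to 10.4) and 0.272% (0.0329 to 0.988). PDGFC had 385, 231 and 718 reads and was within 2-fold in both. PDGFB, the ligand of PDGFRB, had 162 reads in intestine, 2 in P5 and 15 in P10 organoids, or 1.61% (0.194 to 5.92) and 9.28% (5.08 to 15.8) of its intestine CPM. FLT1, a further receptor of VEGFA, had 427, 26 and 4 reads, or 7.96% (5.14 to 11.8) and 0.939% (0.255 to 2.42).

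**Figure D4:**
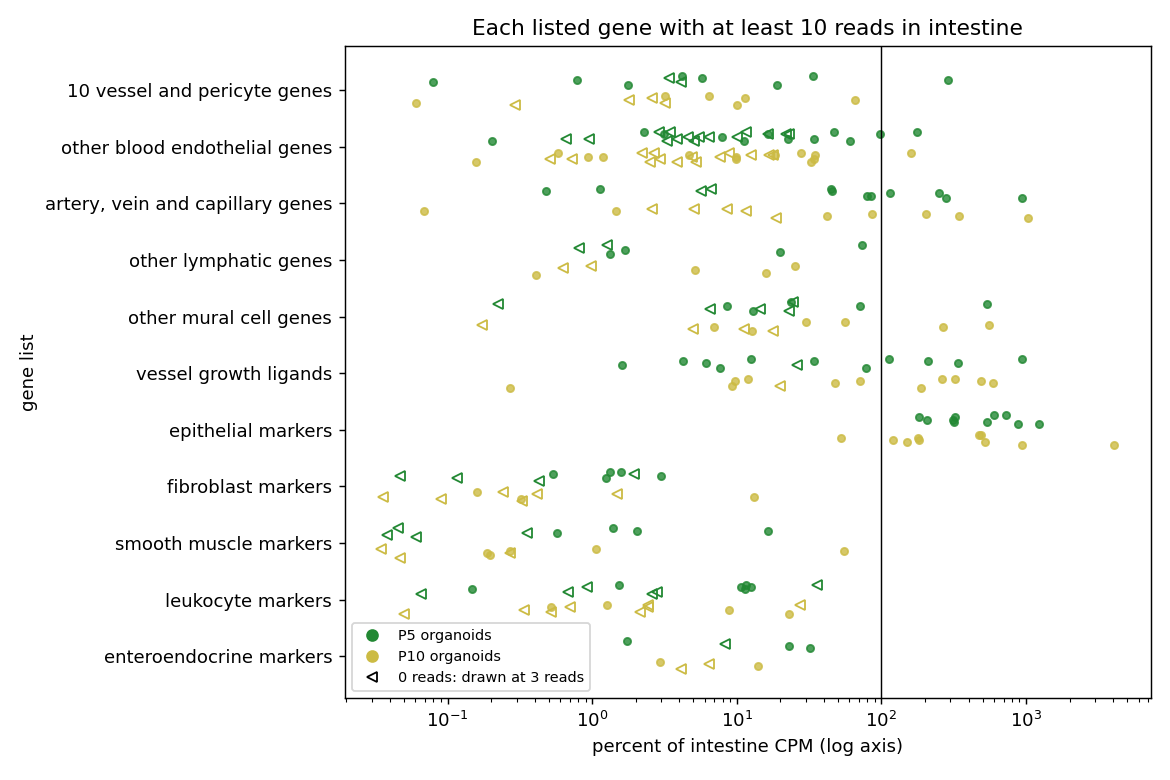
CPM in P5 and P10 organoids as a percentage of the CPM in intestine, 1 point per gene with at least 10 reads in intestine, by gene list on a log axis; open triangles mark genes with no reads at the value of 3 reads. Most vessel genes lie left of the line of equality with the fibroblast, smooth muscle and leukocyte markers, while 10 of 10 epithelial markers in P5 and 9 of 10 in P10 organoids lie right of it.

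Markers of fibroblasts, smooth muscle and leukocytes were also low in the organoids, and those of platelets and red cells in sum were not. The 9 fibroblast markers summed to 0.459% of their intestine CPM in P5 and 0.426% in P10 organoids, with COL3A1, DCN, LUM and THY1 at 0 reads in both. The 8 smooth muscle markers summed to 1.09% and 2.23%, and SMTN, with 187 and 823 reads, made up most of this, while DES, ACTG2 and LMOD1 were at 0 reads in both. The 12 leukocyte markers summed to 1.26% and 0.811%, with C1QA, CD2, CSF1R and MS4A1 among those at 0 reads in both and PTPRC at 40 and 43 reads. PECAM1 and LYVE1 are also made by leukocytes, and VWF by platelets. The 8 platelet and red cell markers summed to 120% of intestine in P5 and 152% in P10 organoids, of which GP9 held 334 and 622 reads. The haemoglobin rows HBA, with 21 reads in intestine, 177 in P5 and 249 in P10 organoids, and HBA1, with 18, 145 and 213, were called higher in both passages, and near-identical copies can share reads where multiple alignments are counted. HBB had 3, 0 and 0 reads, PF4 had 30, 0 and 0, and PPBP was at 0 in all 4 libraries. The part of these cells in the remaining vessel reads was not tested.

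The genes most like the blood endothelial genes over the 4 libraries were sought by the Euclidean distance of centred log2 values to the mean of PECAM1, VWF, CDH5, KDR, TEK and EMCN, among the 15041 rows where a library reached 50 reads. The 5 nearest were CLIC2, SLAMF1, ABCA1, NCALD and CDH11, at distances of 0.18, 0.29, 0.30, 0.31 and 0.34 on the log2 scale. None of these 5 genes is on the vessel lists, so nearness to this profile does not mark a gene as endothelial. CLIC2, a chloride channel family protein, had 98 reads in intestine, 48 in muscle, 4 in P5 and 1 in P10 organoids, and ABCA1, a cholesterol exporter, had 450, 309, 27 and 23. With library totals, TMM or upper-quartile scaling 1 of these 5 remained among the nearest 5, and with a pseudocount of 0.1 none did.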

How the data were processed

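Total RNA was extracted with Trizol and sequenced as QuantSeq 3′ libraries on an Illumina NextSeq 500 instrument. According to the paper's methods, the authors aligned reads with Bowtie2 and counted unique and multiple alignments per gene with Bedtools, and the submitters' processing notes name edgeR. The values the authors deposited are raw read counts per gene symbol, without normalisation. The genome build is not given in the sources used here, so no coordinates are printed, and strand was not stated. Sequences were not used here.

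The 22200 rows with a read in any library were quantile-normalised, as the paper's methods name, ties taking their mean rank, and put on a log2 scale after adding 1. On this scale a single read was worth 2.09 in muscle and P10 organoids, 0.81 in P5 organoids and 0.32 in intestine. Exact Poisson 95% limits of each count were carried through the normalisation and combined by the square-and-add rule. Shares of a library have Clopper-Pearson intervals, and ratios of CPM have exact conditional binomial intervals. Reads were not collapsed by molecular identifier and may be PCR copies, so intervals and floors cover counting error only. Ratios per PECAM1 read have conditional odds ratio intervals. No test was run, since each group has 1 library.

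The 10 genes and the 12 further lists were chosen with earlier results of these data known. The genes named are the 10, and from each of the 5 vessel lists the 3 with the most intestine reads, the 1 with the most organoid reads and those called higher in organoids; a gene named on other grounds was chosen after its values were seen, which holds for FLT4, CCL21, FOXC2, ACKR1, DLL4, GJA5, GJA4, PDGFB, FLT1 and the markers PAX6, INSM1, HBA and HBA1. Alternatives were library totals with and without RN18S1, edgeR's TMM and upper-quartile scaling, pseudocounts of 0.1 and 5, rows of 1 symbol summed, filters of 10 reads in any library or in every library, a minimum of 50 reads and a 4-fold call. The procedures were tested on simulated libraries of 1 shared composition, apart from a set of genes raised in 1 library. Such data cannot check the scaling between tissues as unlike as intestine and muscle. Normalisation factors came from edgeR 4.0.16 in R 4.3.3, and all else was computed in Python 3.11.15 with scipy 1.17.1, pandas 2.3.3 and numpy 2.4.6.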

Additional observations from a re-analysis of the deposited data

Results flagged for a closer look

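PROX1 was above its intestine level at one passage and below it at the other, with log2 differences of 1.43 in P5 and -0.74 in P10 organoids, both past counting error and of the same sign under all 5 scalings. PDGFC, a PDGF family ligand, had the reverse order, with log2 differences of -0.44 in P5 and 0.66 in P10 organoids, each less than 2-fold. With 1 library per passage these differences between the passages were not tested, and an effect of passage and a difference between single cultures cannot be told apart.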

How the results depend on the processing

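The organoid counts kept within 1.5 times of 8 genes lower in P5 and 9 lower in P10 organoids under the alternatives run, except the filter of 10 reads in every library, which leaves 3 of the 10 genes and gave 2 lower for each passage. The counts for intestine against muscle, 1 higher and 5 lower, became 5 higher and 1 lower with library totals, 3 and 2 with RN18S1 left out, 0 and 1 with 10 reads in every library, 3 lower with TMM and 2 lower with a 4-fold call. The 1 gene higher in P10 than in P5 organoids became 0 with library totals with or without RN18S1, TMM, upper quartile, a pseudocount of 5, at least 50 reads or 4-fold. The 3 genes lower in P10 than in P5 organoids became 1 with 10 reads in every library or at least 50 reads. The 1 gene higher in P5 organoids than in intestine became 0 at 4-fold. Of called values of the 10 genes and the genes named by rule, 4 changed sign in intestine minus muscle with library totals. They were CDH5 (0.23), LYVE1 (0.13), NOTCH3 (0.25) and APLN (0.27). Further genes of the vessel lists, outside this count, changed sign as well. Among them were ENG (log2 difference -1.04, CPM ratio 1.26) and ADGRL4 (-1.47, CPM ratio 1.18). The count of genes whose CPM interval lay below 50% of intestine, 8 in P5 and 9 in P10 organoids, did not move with TMM-scaled totals or without RN18S1. Of 332 other values of the 10 genes, 274 stayed within the counting interval. Among 360 list counts over all comparisons, 302 stayed within 1.5 times of the main count and 58 did not. No paired analysis was possible because each group has 1 library. Depth limits the genes at 0 reads, whose bound at 3 reads is 0.221 CPM in P5 and 0.169 CPM in P10 organoids.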
